A study of Mus musculus with 12 samples.

Results

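Mural cells are the cells of the vessel wall, and 166 of the 3117 filtered striatal cells of this series were taken as mural. They were chosen by detection of at least 4 of the 7 genes Pdgfrb, Rgs5, Vtn, Kcnj8, Higd1b, Des and Myl9 together with at most 2 of the 4 endothelial genes Flt1, Pecam1, Kdr and Slco1a4. A filtered cell had more than 500 detected genes and under 10% mitochondrial molecules. The study measured single-cell RNA of mouse striatum after magnetic enrichment with ACSA2, an astrocyte surface antigen, so vessel cells were bystanders of the sort and their shares do not measure the makeup of the tissue. RNA molecules were counted by unique molecular identifiers (UMIs) in 4 droplet libraries, which had been sequenced in 12 runs. The postnatal group held 2 libraries of wild-type striatum, and the 3m group held 2 libraries of wild-type striatum at 3 months. The labels give the strain as mixed, whereas the methods of the study name male C57BL/6Jax mice, with several animals pooled in a preparation and no treatment. The labels of the postnatal libraries conflict: the title of postnatal replicate 1 gives day 7 and its age tag day 3, and those of postnatal replicate 2 give day 3 and day 7. The 2 postnatal libraries were therefore kept as 1 group. The paper names P3 for its early postnatal striatal cells, and whether the spread between these libraries includes an age difference is not known.

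Mural cells comprise pericytes, which sit on capillaries inside the vascular basement membrane, and smooth muscle cells, which ring arterioles and contract through smooth muscle actin. Endothelial cells recruit them by secreting PDGF-B, which binds the receptor Pdgfrb on the mural cell, and Notch3 carries a further endothelial signal. In the brain, pericytes take part in forming the blood-brain barrier and lay down the basement membrane jointly with endothelial cells and astrocytes. The vessel bed of the rodent striatum still grows after birth.

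The libraries differed in depth and in how cleanly the rule chose cells. Library totals ran from 7185335 to 11501049 UMIs, and the mural cells added up to 187896 and 459219 UMIs in the postnatal libraries (replicate 1 first) and to 267471 and 212832 UMIs at 3m. In 11 of the 166 cells, the markers of another cell type held more UMIs than the 7 mural genes. These were 1 and 4 cells of the postnatal libraries and 5 and 1 cells of the 3m libraries. The cell in postnatal replicate 1 was led by fibroblast markers and alone held 18.4% of the mural UMIs of its library. The 4 cells of postnatal replicate 2 were led by astrocyte markers, 3 and 2 of those in 3m replicate 1 by astrocyte and oligodendrocyte markers, and the cell in 3m replicate 2 by fibroblast markers. Tests between the ages are given over all 166 cells and, chosen after seeing the data, without these 11. Postnatal replicate 2 and 3m replicate 2 shared 95 barcodes, of which the member with fewer UMIs was dropped, and 5 dropped members of 3m replicate 2 would otherwise have met the rule. No other pair of libraries shared more than 2 barcodes.

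At the edge of the rule, the 13 cells with exactly 4 of the 7 genes had a median of 22 UMIs of those genes and 2 UMIs of astrocyte markers. These medians cover unlike cells, since the 4 astrocyte-led cells of postnatal replicate 2 were all among the 13, with 5 to 8 UMIs of the 7 genes and 28 to 86 of astrocyte markers. The 71 cells with exactly 3, just outside, had a median of 5 UMIs of the 7 genes and 63 of astrocyte markers. A further 92 cells had at least 4 mural genes but more than 2 endothelial genes, with a median of 276.5 UMIs of endothelial markers, and were not taken. Most members lay well inside the edge, since 78 cells had 6 of the 7 genes and 61 had all 7.

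Beyond the rule, members carried known pericyte genes at high ratios to other cells, and also Mylk, a myosin kinase gene of the smooth muscle list, at 35.8 or more in every library. Because these genes were measured in the cells that the rule chose, the ratios are a description without a test. The summed level of 14 further pericyte genes was 6073 and 4231 CPM (counts per 1e6 UMIs summed) in the mural sums of postnatal replicates 1 and 2, and 10270 and 12174 CPM at 3m. The highest of the lowest ratios to all other cells of the same library belonged to Slc38a11, an amino acid transporter, at 61.0 and 118 in the postnatal libraries and 110 and 142 at 3m. Transcription factors of vessel mesenchyme were among the 20 leading genes. Foxd1 was at a ratio of 28.7 or more in every library, Tbx18 at 27.5 or more and Foxs1 at 25.6 or more. The membrane proteins Atp13a5, an ATPase used as a pericyte marker, Cd248, also called endosialin, and Anpep, an aminopeptidase, were at ratios of 25.9, 24.8 and 23.8 or more. Il34, which encodes a ligand of the microglial receptor Csf1r, reached ratios of 31.3 and 28.9 postnatally and 102 and 55.2 at 3m.

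**Figure D1:**
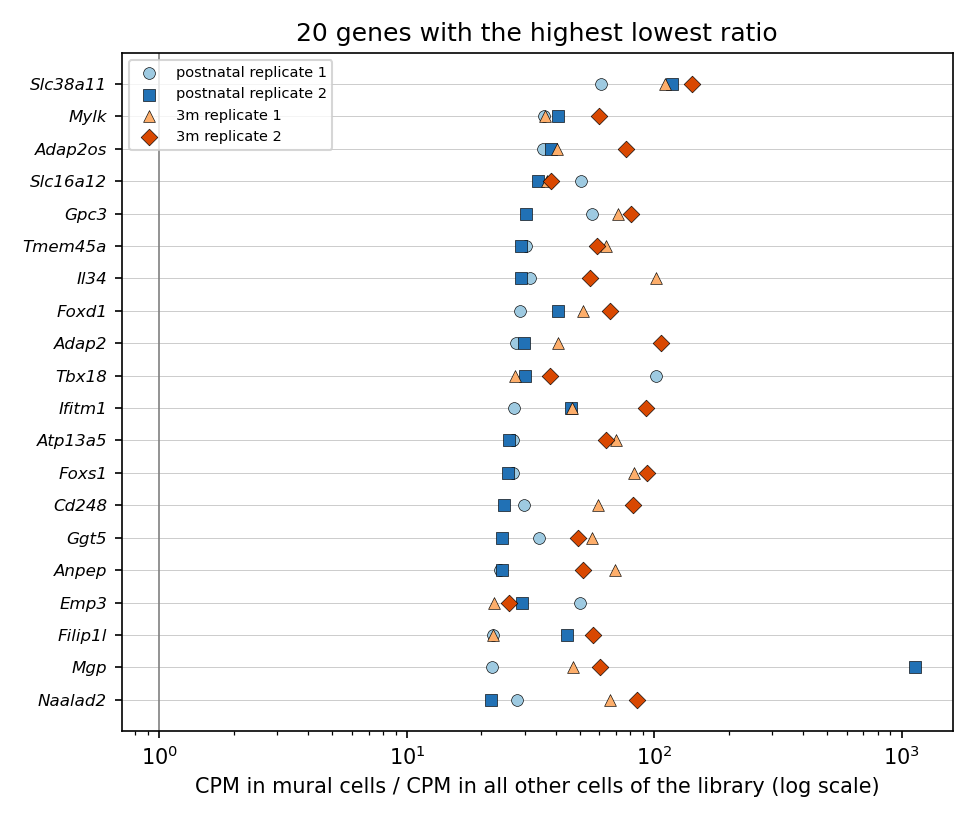
Ratio of CPM in mural cells to CPM in all other filtered cells of the same library (log axis) for the 20 genes outside the selection rule with the highest of their lowest ratio, with 1 point for each of the 4 libraries and a vertical line at equality. All points lie to the right of the line, and the lowest, for Naalad2, is 21.8.

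Markers of other cell types were present in the mural sums at different levels. Astrocyte markers summed to 410 and 1263 CPM in the postnatal sums and 3754 and 813 CPM at 3m, and without the 11 cells to 365, 841, 1123 and 794 CPM. Oligodendrocyte markers summed to 10.6 and 37.0 CPM postnatally and 5915 and 357 CPM at 3m, and without the 11 cells to 13.0, 20.2, 337 and 344 CPM. Fibroblast markers were at 1873 and 821 CPM postnatally and 288 and 869 CPM at 3m, where the ages overlapped, and without the 11 cells at 639 and 940 CPM and then at 342 and 402 CPM, where they did not. Endothelial markers did not separate the ages, at 692 and 442 CPM postnatally and 340 and 644 CPM at 3m. Of the 9 microglial markers, 7, among them Cx3cr1, C1qa and P2ry12, were at 0 in all 4 sums. Red blood cell markers were at 7.48 to 42.6 CPM, and the neuron list at 740 and 995 CPM postnatally and 116 and 117 CPM at 3m, mainly from Meg3. The part of these levels in the age differences was tested only by leaving the 11 cells out.

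The share of filtered cells that were mural was close in the 4 libraries. It was 3.78% (21 of 555 cells, 95% Clopper-Pearson interval 2.36 to 5.73) in postnatal replicate 1 and 5.12% (37 of 723, 3.63 to 6.99) in postnatal replicate 2. It was 5.63% (63 of 1120, 4.35 to 7.14) in 3m replicate 1 and 6.26% (45 of 719, 4.60 to 8.29) in 3m replicate 2. Both 3m values were above both postnatal values, by 1.49 percentage points on average, and the exact permutation p over libraries was 0.333, the smallest that 2 libraries against 2 can give. The direction rested on the marker minimum, since cells with at least 3 of the 7 genes gave -2.15 points, and after thinning each cell to 2000 UMIs the difference was 0.424 points. These intervals cover counting error only. The median mural cell held 7830 and 11696 UMIs in the postnatal libraries and 3080 and 4293 UMIs at 3m, whereas the medians of all other cells were 9815, 11639.5, 8018 and 10615.5 UMIs in the same order. The mural groups did not overlap, with a difference of -6076.5 UMIs and an exact permutation p of 0.333.

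Smooth muscle-type cells were told from pericytes by Acta2, smooth muscle actin, and Tagln, the actin-binding protein transgelin. A cell was called Acta2/Tagln-high where both genes were detected at a sum of at least 1000 CPM of the cell, and Acta2/Tagln-low where neither was detected. There were 18 high cells, namely 0 of 21 and 8 of 37 mural cells in the postnatal libraries and 5 of 63 and 5 of 45 at 3m. The low cells numbered 17, 27, 54 and 39 in the same order, and 11 cells lay between, 3 with Acta2 alone and 8 with Tagln alone, at 62.9 to 6184 CPM. The high share was 0%, 21.6%, 7.94% and 11.1%, and 0 of 21 cells allows a share of up to 14.3% by the limit of 3 counts and 16.1% by the Clopper-Pearson interval. The ages overlapped, with a difference of -1.29 percentage points (exact permutation p = 1). The sign of that difference rested on single libraries: it was 9.52 points without postnatal replicate 2 and 0.300 points without 3m replicate 1. Limits of 500 or 2000 CPM gave the same high cells, the lowest of which was at 2204.

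Within the high class, the level of Acta2 and Tagln differed by library. Their sum per cell had a median of 10120 CPM in postnatal replicate 2 (2988 to 16188 over 8 cells), 22643 in 3m replicate 1 (2717 to 35704 over 5 cells) and 32115 in 3m replicate 2 (2204 to 64947 over 5 cells). The ranges overlapped, while the 2 medians at 3m were above the postnatal one. High cells were deeper than low cells of their library, with median UMI counts of 18761.5 against 8485 in postnatal replicate 2, 5950 against 2984 in 3m replicate 1 and 10855 against 4222 in 3m replicate 2.

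**Figure D2:**
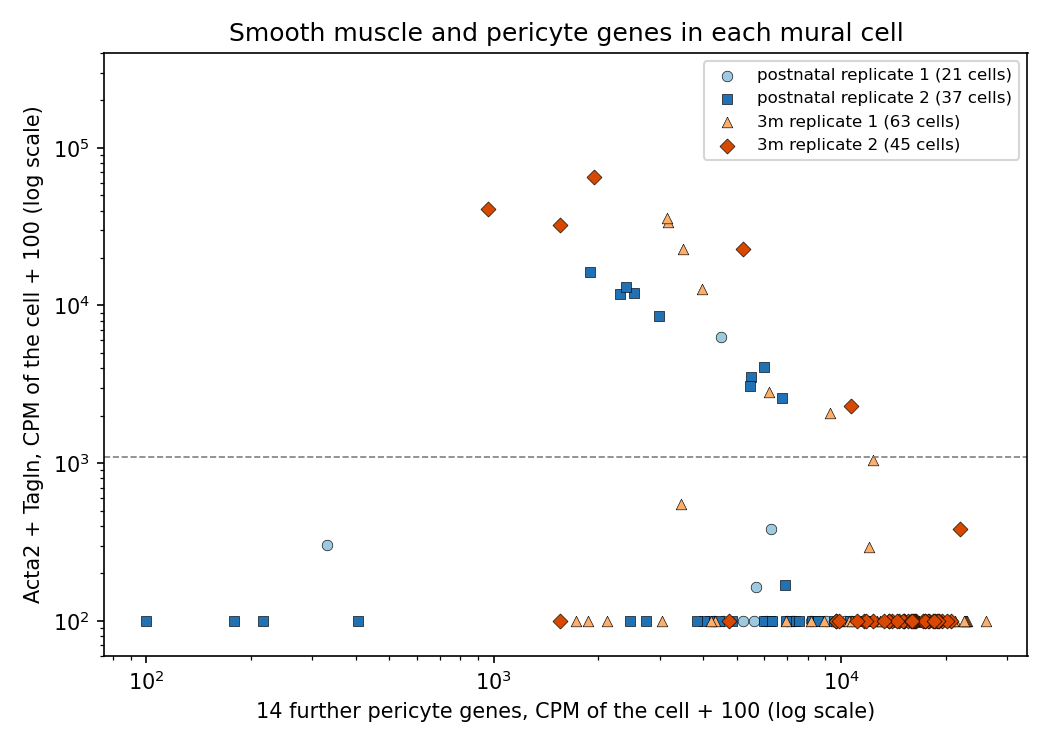
Each point is 1 of the 166 mural cells. The vertical axis is the sum of Acta2 and Tagln and the horizontal axis the sum of 14 further pericyte genes, both as CPM of the cell plus 100 on log scales, coloured by library, and the dashed line marks 1000 CPM plus the added 100. The 18 high cells lie above the line, with 3 further cells above it in which 1 of the 2 genes was not detected, and the cells with neither gene form the row at the bottom.

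High and low cells differed in both contractile and pericyte genes, which is described without a test because the classes were cut from these cells and 10 of the 11 doubtful cells were low. Of the pooled UMIs of high cells 70.1% came from postnatal replicate 2, against 33.2% of those of low cells, so the pooled values mix age with class. Myh11, the smooth muscle myosin heavy chain, was at 1091 CPM in the pooled high cells and 7.69 CPM in the pooled low cells, a ratio of 142. Pln, phospholamban, an inhibitor of the calcium pump of the sarcoplasmic reticulum, was at 281 CPM in high cells and had no UMI in low cells. Tinagl1, a matrix protein, was 63.5 times as high in high as in low cells, Lmod1, the actin nucleator leiomodin, 18.5 times and Tpm2, a tropomyosin, 18.3 times. Atf3, a stress-induced transcription factor, stood at a ratio of 131 and the chaperone Hspa1a at 25.3, both carried mainly by the 3m cells. Hspa1a was at 94.4 against 38.6 CPM in postnatal replicate 2. It was at 970 against 22.2 CPM in 3m replicate 1 and at 2172 against 12.2 CPM in 3m replicate 2.

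In the other direction, the channel pair of brain pericytes was low in high cells. Kcnj8, the pore of the ATP-sensitive potassium channel and a gene of the rule, was at 86.8 CPM in high and 1451 CPM in low cells. Abcc9, its regulatory subunit, was at 78.5 and 1175 CPM, and it was detected in 6 of 8 high cells of postnatal replicate 2 but in 0 of 5 and 0 of 5 high cells of the 3m libraries. The 2 genes are neighbours on chromosome 6 (mm10 chr6:142564837-142571614 for Kcnj8 and chr6:142587862-142702315 for Abcc9). Slc22a8, an organic anion transporter, had 0 UMIs in high cells and 300 CPM in low cells. Nodal, a ligand of the TGF-beta family, was at 4.13 and 156 CPM pooled, at 5.90 and 11.6 CPM within postnatal replicate 2 and at 0 against 315 and 275 CPM in the 3m libraries, and Emcn, the sialomucin endomucin, at 4.13 and 140 CPM. Other genes low in high cells were Apod, Gpr37l1, Ptgds and Clu, which astrocytes and oligodendrocytes also express. Notch3 was at 438 CPM in high and 391 CPM in low cells when pooled, at 448 and 313 CPM within postnatal replicate 2, and at 373 against 399 CPM and 439 against 501 CPM in the 3m libraries.

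Between the ages, UMI counts summed over the mural cells of each library were tested with edgeR. A gene was called at an adjusted p of at most 0.05 and a log2 fold change of at least 1. Of 4549 genes tested, 99 (2.18%) were called higher and 101 (2.22%) lower at 3m. An unadjusted p under 0.05 was found for 1128 genes. With the replicate number of the labels as a block, 0 genes were called, with 909 at an unadjusted p under 0.05. The 200 calls leaned on postnatal replicate 2. Without it, the postnatal arm was 1 library assumed to vary like the 3m arm, and 1 gene was called, Ptgds, prostaglandin D synthase. Without the other libraries in turn the counts were 170, 347 and 471. When the 11 cells led by markers of other types were left out, 242 of 3858 genes tested (6.27%) were called higher and 192 (4.98%) lower, 174 of the original 200 calls were among them, and leaving out each library then gave 374 to 678 calls. In sums, fewer cells with a gene and less of its RNA per cell cannot be told apart. Nothing in the labels says that libraries came from separate animals beyond their pooled preparations, so p-values measure the spread between libraries.

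Among the genes called higher, 12 were taken by the size of the rise, and the 11 given here held a growth factor and a calcium-handling gene of muscle. Nodal (mm10 chr10:61417972-61425338) was at 21.3 and 8.71 CPM in the postnatal sums and at 265 and 221 CPM at 3m. The groups did not overlap, and the rise was 4.26 ± 0.43 (adjusted p = 0.0124). It was found in 34 of 54 and 23 of 39 low cells at 3m and in 0 of 5 and 0 of 5 high cells. Perp, a membrane protein of desmosomes, was at 21.3 and 13.1 CPM and then at 295 and 338 CPM, and Cog7, a subunit of a Golgi tethering complex, at 10.6 and 26.1 CPM and then at 265 and 291 CPM. Both rose, by 4.34 ± 0.34 and 3.78 ± 0.39, and unlike Nodal both were detected in high cells at 3m. Lower in level, and also not overlapping between ages, were Ccl11, a chemokine for eosinophils (0 CPM in both postnatal sums, 44.9 and 94.0 CPM at 3m, at least 14.4-fold higher over the pooled group), the epoxide hydrolase gene Ephx3, the junction protein gene Ajap1, the phosphodiesterase gene Pde4c, the phosphatase gene Ptpn22 and Cygb, which encodes cytoglobin.

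The UMIs of Sncg and Pln lay in cells with Acta2 or Tagln. Sncg, gamma-synuclein (mm10 chr14:34370274-34374789), had 0 UMIs in both postnatal sums and 131 and 291 CPM at 3m, which over the pooled groups is at least 43.6-fold higher. It was found in 5 of 5 and 5 of 5 high cells at 3m, in 0 of 8 postnatal high cells and in 0 low cells of any library. Pln was at 0 and 2.18 CPM postnatally and 86.0 and 207 CPM at 3m, a rise of 6.24 ± 0.85 (adjusted p = 0.0239), with UMIs in 3 of 5 and 4 of 5 high cells at 3m and in 1 of 8 postnatally. The high cells of the postnatal group all came from postnatal replicate 2, so that library sets the postnatal level in this class. Casq2, calsequestrin, which binds calcium in the sarcoplasmic reticulum, was at 53.2 and 10.9 CPM postnatally and 265 and 211 CPM at 3m (rise of 3.25 ± 0.61, adjusted p = 0.0411). Unlike Pln, it was detected in low cells as well, in 26 of 54 and 17 of 39 at 3m and in 6 of 17 and 1 of 27 postnatally. Low cells held 101 of its UMIs and high cells 13, at 129 and 53.7 CPM pooled. High against low cells were at 17.7 and 3.86 CPM in postnatal replicate 2. They were at 261 and 235 CPM in 3m replicate 1 and at 65.8 and 244 CPM in 3m replicate 2.

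Of 14 smooth muscle genes, 12 were tested and 4 were called higher (Sncg, Pln, Mustn1 and Casq2), with none lower and a list median of 1.81 against 0.00 for all genes tested. Acta2 itself, at 0 and 2506 CPM postnatally and 1368 and 5150 CPM at 3m, was not called, and the ages overlapped. Actg2, smooth muscle gamma-actin, was seen in 5 of 8 high cells of postnatal replicate 2 and in no other mural cell, although its near-identical sequence to Acta2 makes the assignment of its reads uncertain. With the cells that had both Acta2 and Tagln left out, 4 genes of the list remained in the test, with 1 call each way and a median of 0.22. Over all 4223 genes of that fit, 108 were called higher and 138 lower.

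**Figure D3:**
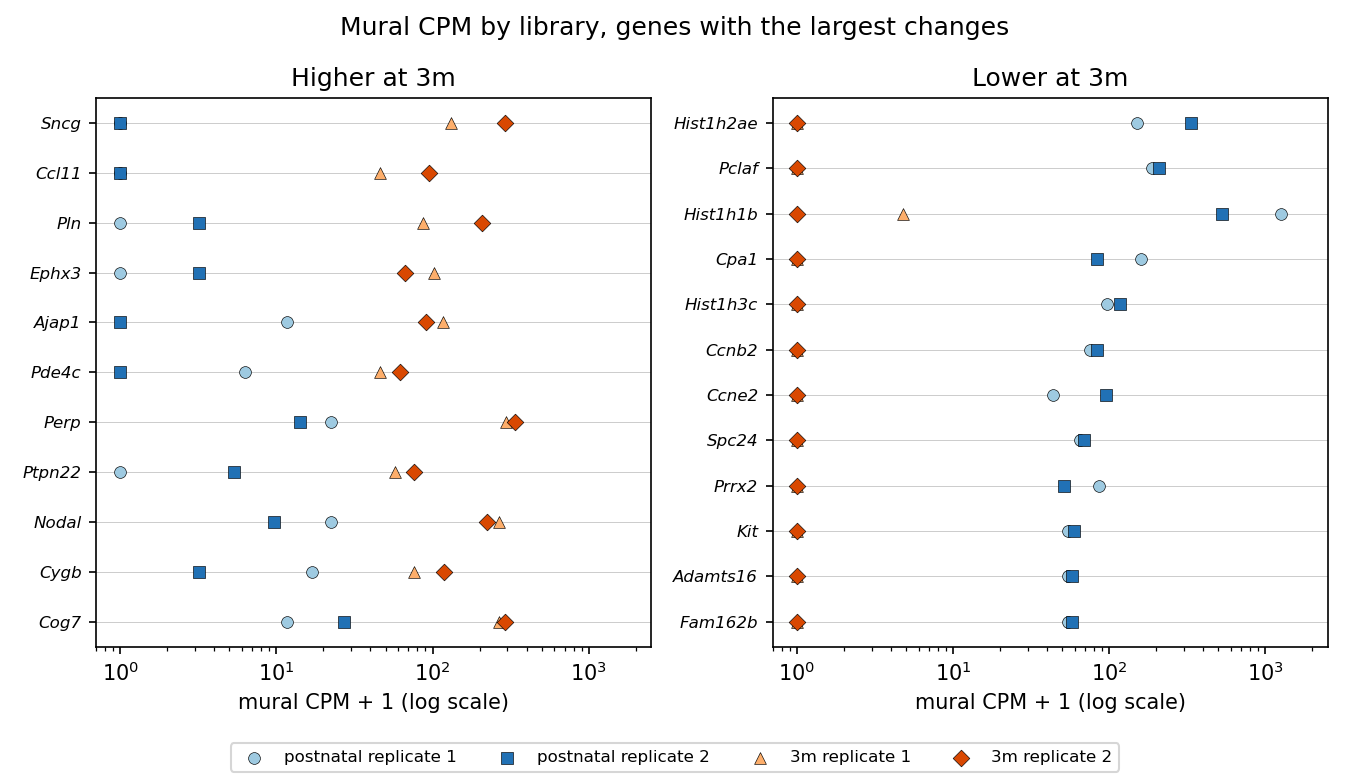
Mural CPM plus 1 (log axis) in each of the 4 libraries for 11 of the 12 genes with the largest called rise (left) and the 12 with the largest called fall (right) at 3m; 1 point is 1 library. In both panels the 2 ages do not overlap for any gene, as the choice of these genes required, and the right panel has the 3m points at or near 0 CPM.

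Of the 12 largest falls, 7 were in genes of DNA replication, histones and cell division. Pclaf, a PCNA-associated factor, was at 186 and 207 CPM in the postnatal sums and had 0 UMIs at 3m, which is at least 32.2-fold lower over the pooled group. The cyclin genes Ccnb2 and Ccne2 and Spc24, of the kinetochore, were at 42.6 to 93.6 CPM postnatally and also at 0 UMIs at 3m, at least 12.9-fold, 12.6-fold and 10.6-fold lower. The histone genes Hist1h2ae, Hist1h1b and Hist1h3c fell as well, but members of this family share near-identical sequence and their counts are uncertain. Their levels also rested on the 4 astrocyte-led cells of postnatal replicate 2, where Hist1h2ae was at 335 CPM with and 58.1 CPM without those cells, Hist1h1b at 527 and 83.4 CPM, and Hist1h3c at 115 and 27.8 CPM. Of 10 genes of S phase and mitosis, 7 were tested and 3 were called lower (Top2a, Cdk1 and Birc5), against 2.22% of all genes, with 6 called lower when the 11 doubtful cells were left out, against 4.98% of all genes. A few cells carried this signal. Both Mki67 and Top2a were detected in 1 of 21 mural cells of postnatal replicate 1 and 5 of 37 of postnatal replicate 2, and in 0 of 63 and 0 of 45 at 3m. In all other cells of the same libraries the share was 7.49%, 9.18%, 0.0946% and 0.445%.

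A further set of falls was spread over many cells. Cpa1, carboxypeptidase A1, known as a digestive enzyme of the pancreas (mm10 chr6:30639218-30645363), was at 160 and 82.7 CPM in the postnatal sums and had 0 UMIs at 3m, at least 16.8-fold lower. It was detected in 52.4% and 35.1% of postnatal mural cells, in 2.81% and 1.17% of the other postnatal cells and in 0 of 63 and 0 of 45 mural cells at 3m. Prrx2, a homeobox gene of mesenchyme (mm10 chr2:30834972-30881251), was at 85.2 and 50.1 CPM and then at 0 UMIs, at least 9.65-fold lower. It was seen in 11 of 21 and 13 of 37 postnatal mural cells but also in 9.74% and 14.9% of the other postnatal cells. Kit, a receptor tyrosine kinase, Adamts16, a secreted metalloproteinase, and Fam162b were at 53.2 to 58.8 CPM postnatally and 0 UMIs at 3m. In postnatal replicate 2, Kit and Adamts16 were each found in 7 of 8 high cells, but in 5 and 2 of 27 low cells. Fam162b was in 1 of 8 high and 9 of 27 low cells there. In postnatal replicate 1, with 0 high cells, Kit was in 4 and Adamts16 in 5 of 17 low cells. Without the 11 doubtful cells, Kit and Hist1h3c no longer passed the filter on low counts, and the other 10 falls were called.

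Several genes of the vascular basement membrane fell. Of 18 genes in this list, 15 outside the rule were tested, and 8 were called lower and 0 higher, against 2.22% of all genes called lower. The median log2 fold change was -2.12 against 0.00 for all genes tested. Without the 11 doubtful cells 9 of 13 were called lower, against 4.98% of all genes. Col4a1, the alpha-1 chain of collagen IV, was at 3215 and 3806 CPM in the postnatal sums and 497 and 738 CPM at 3m. Col4a2, the alpha-2 chain with which it assembles, was at 1607 and 1797 CPM and then at 228 and 385 CPM. Neither gene overlapped between the ages, and they fell by 2.45 and 2.42 on the log2 scale (SE 0.25 and 0.29, adjusted p = 0.0124 and 0.0197). The 2 genes lie head to head on chromosome 8, on opposite strands, at mm10 chr8:11198423-11312826 (Col4a1) and chr8:11312805-11449287 (Col4a2). Their promoters are printed because both genes fell by nearly the same amount, and the windows, which run from 250 bases before to 50 bases after each start, share bases. They come from RefSeq on GRCm38.p6, at chr8:11312777-11313076 on the minus strand for Col4a1 and chr8:11312555-11312854 on the plus strand for Col4a2, each written 5′ to 3′ along its own gene. Capitals mark the 78 bases that both windows hold, read from opposite strands.
Col4a1: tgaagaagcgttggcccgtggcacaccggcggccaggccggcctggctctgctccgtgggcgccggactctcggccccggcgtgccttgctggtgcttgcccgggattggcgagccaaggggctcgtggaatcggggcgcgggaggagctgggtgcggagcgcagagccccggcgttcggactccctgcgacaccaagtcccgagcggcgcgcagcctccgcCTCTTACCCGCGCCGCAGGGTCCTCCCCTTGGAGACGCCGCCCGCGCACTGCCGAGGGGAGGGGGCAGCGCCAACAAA
Col4a2: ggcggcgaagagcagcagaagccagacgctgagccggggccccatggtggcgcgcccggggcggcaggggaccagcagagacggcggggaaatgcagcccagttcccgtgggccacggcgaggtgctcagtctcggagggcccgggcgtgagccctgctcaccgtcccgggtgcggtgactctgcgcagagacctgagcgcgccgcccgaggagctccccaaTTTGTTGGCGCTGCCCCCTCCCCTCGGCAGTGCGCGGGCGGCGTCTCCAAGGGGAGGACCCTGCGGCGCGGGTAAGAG
Of 32851 promoter entries in the same table, 10.8% overlap an entry of another gene on the other strand. The letters CCAAT occur 1 time in each window when both strands are searched, as in 37.4% of all entries, and GGGCGG occurs 1 time in the Col4a1 window and 3 times in the Col4a2 window, against 35.7% of entries with at least 1 match. A match of letters is a description of the window and no site.

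The laminin chains of the basement membrane did not move alike. Lamb1, the beta-1 chain, was at 420 and 457 CPM in the postnatal sums and 52.3 and 89.3 CPM at 3m and fell by 2.58 on the log2 scale (SE 0.31, adjusted p = 0.0197). Lama1, the alpha-1 chain, fell by 4.47 (adjusted p = 0.035), from 117 and 100.2 CPM to 0 and 9.40 CPM, but it no longer passed the filter without the 11 doubtful cells. Lamc1, the gamma-1 chain, was at 564 and 512 CPM and then at 288 and 587 CPM, which overlapped, with a log2 fold change of -0.24 ± 0.34. Lama2 and Lamb2, the chains known from adult vessels and muscle, had log2 fold changes of 0.77 ± 0.35 and 1.22 ± 0.47 and were not called. Lama4 was at -1.76 ± 0.38 (adjusted p = 0.0597) and was called lower without the 11 cells.

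Linker and adaptor proteins of the same membrane were lower at 3m. Nid1, the linker nidogen, was at 990 and 740 CPM in the postnatal sums and at 168 and 310 CPM at 3m, a fall of 1.79 on the log2 scale. Agrn, the proteoglycan agrin, fell by 2.12, and Fn1, fibronectin, by 2.99. Sparc, a collagen-binding protein of the matrix, was at 3278 and 2820 CPM and then at 1252 and 1414 CPM, a smaller fall of 1.12. Hspg2, perlecan, was not called, at 0.03 ± 0.40. Outside the basement membrane, 10 of 16 other matrix genes were tested and 2 were called lower, the fibrillar collagen genes Col3a1 (by 3.22) and Col5a2 (by 2.29), with 0 higher and a list median of -0.94. Col3a1 and Col1a2 are also fibroblast markers, and fibroblast markers were at 1873 CPM in postnatal replicate 1 with and 639 CPM without its 1 doubtful cell; Col3a1 was called lower in both cases. Vtn, vitronectin, an adhesive glycoprotein and a gene of the rule, went the other way and is given without a test, at 5029 and 3027 CPM postnatally and 20268 and 23963 CPM at 3m.

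**Figure D4:**
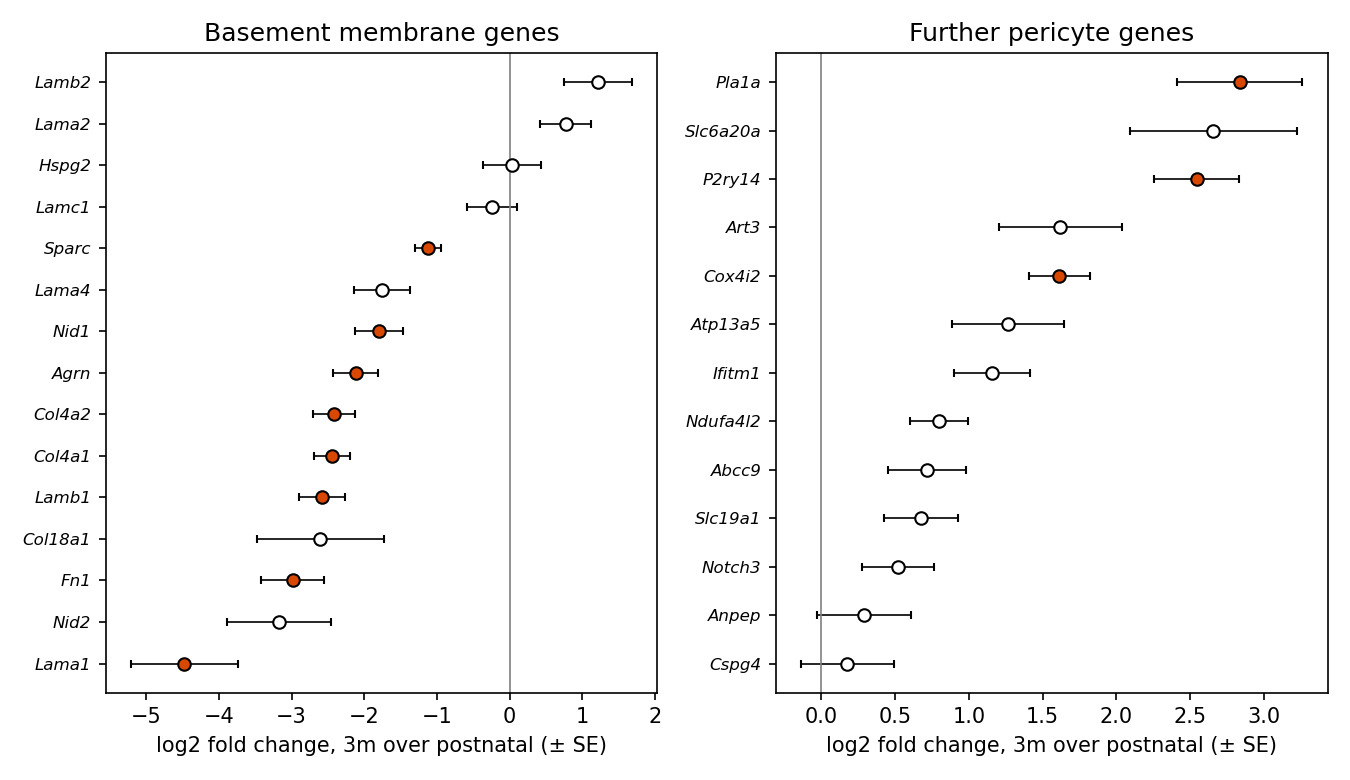
Log2 fold change of 3m over postnatal in mural sums for the tested genes of the basement membrane list (left) and 13 genes of the further pericyte list (right), without genes of the selection rule; bars are the SE of the edgeR fit and filled points are called genes. On the left 8 of 15 points are called and all called points lie below 0, and on the right 3 of the 13 points drawn are called and all 13 lie above 0.

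Pericyte genes outside the rule leaned to higher levels at 3m. All 14 were tested, 4 were called higher and 0 lower, and the median log2 fold change was 1.21. P2ry14, a receptor for UDP-sugars (mm10 chr3:59113855-59153618), was at 208 and 150 CPM in the postnatal sums and 800.1 and 1175 CPM at 3m, a rise of 2.54 ± 0.29 (adjusted p = 0.0172). Cox4i2, a lung- and vessel-type subunit of cytochrome oxidase, was at 426 and 364 CPM and then at 1103 and 1193 CPM, a rise of 1.61 ± 0.21. Pla1a, a phosphatidylserine-specific phospholipase, rose by 2.83 ± 0.43. The classic pericyte antigens gave smaller values. Cspg4, the NG2 proteoglycan, had a log2 fold change of 0.18 ± 0.31, Anpep 0.29 ± 0.32, Notch3 0.52 ± 0.24 and Abcc9 0.72 ± 0.26, and none of them was called. The share of all genes called higher was 2.18%. Without the 11 doubtful cells 8 of the 14 were called higher, the added ones being Atp13a5, Ifitm1, Slc6a20a and Art3, while calls over all genes rose as well, to 6.27%.

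Transporters and channels held rises and no called fall. Of 15 transporter genes, 9 were tested and 2 were called higher, among them Slc22a8 (117 and 41.4 CPM, then 359 and 517 CPM, a rise of 2.64 ± 0.48). The list median was 1.30. Without the 11 cells 6 of 9 were called higher, against 6.27% of all genes in place of 2.18%. Of 15 channel and calcium genes, 9 outside the rule were tested. Ano1, a calcium-activated chloride channel through which pericytes and smooth muscle depolarise, was at 42.6 and 37.0 CPM and then at 168 and 188 CPM, a rise of 2.24 ± 0.30 (adjusted p = 0.0229), and Pln was the other call. The calcium pump Atp2a2 that Pln inhibits had a log2 fold change of 0.29 ± 0.26, and the calcium release channels Itpr1 and Itpr2 had 0.81 ± 0.30 and 0.15 ± 0.29.

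Of 20 vasoactive receptor and cGMP genes, 11 outside the rule were tested. P2ry14 and Rgs4 were called higher, 2 of 11, against 2.18% of all genes. Without the 11 doubtful cells 2 of 10 were called higher, against 6.27% of all genes. Rgs4, which shortens G-protein signals, was at 303 and 300.5 CPM and then at 804 and 1236 CPM, a rise of 1.81 ± 0.26 (adjusted p = 0.0271). The endothelin receptor Ednra was at 442 and 240 CPM and then at 172 and 207 CPM, and with -0.75 ± 0.34 it was not called. The soluble guanylate cyclase that senses nitric oxide is built from Gucy1a1 and Gucy1b1. Gucy1a1 was at 985 and 812 CPM and then at 535 and 663 CPM (-0.52 ± 0.22), while Gucy1b1 was at 479 and 420 CPM and then at 718 and 954 CPM (0.96 ± 0.23). Neither was called, and the opposite signs of the 2 subunits were not tested against each other. Rgs5, a gene of the rule, was at 8952 and 8765 CPM postnatally and at 4868 and 7034 CPM at 3m.

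Ligands and receptors of mural recruitment gave few calls, in lists of 1 to 9 tested genes. With 2.18% of all genes called higher and 2.22% lower, 0 calls do not set such short lists apart. Of 6 PDGF genes, Pdgfa was tested outside the rule (0.36 ± 0.37, not called), and the ligand gene Pdgfb had 9 postnatal and 4 3m UMIs in the mural sums. Pdgfrb, a gene of the rule, was at 793 and 712 CPM postnatally and 1069 and 1391 CPM at 3m. Of 12 Notch genes 9 were tested and 0 were called by edgeR or DESeq2, with 0 at an unadjusted p under 0.05 in edgeR. They ranged from -0.03 ± 0.38 for Notch2 to 0.83 ± 0.36 for Hes1, a Notch target. Of 21 TGF-beta and BMP genes 9 were tested and 0 were called by edgeR or DESeq2 (2 at an unadjusted p under 0.05 in edgeR), and without the 11 cells, where more genes were called over the whole table, Tgfb1 was called lower and Bmp4 and Tgfbr3 higher. Tgfb1, a ligand, was at 154 and 91.5 CPM postnatally and 29.9 and 28.2 CPM at 3m, with no overlap (-1.94 ± 0.43, adjusted p = 0.0608). Of 8 angiopoietin and sphingosine genes 2 were tested and neither was called, and S1pr3 was at 0.31 ± 0.37.

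None of the tested transcription factors of mural identity was called. Of 17, 14 were tested and 0 were called by edgeR or by DESeq2, while 3 had an unadjusted p under 0.05 in edgeR. Over all genes edgeR called 2.18% higher and 2.22% lower, so 0 of 14 does not set this list apart. Ebf1 had a log2 fold change of 0.09 ± 0.23, Foxc1 -0.09 ± 0.24, Nr2f2 0.22 ± 0.24 and Mef2c 0.41 ± 0.23. Zeb1, at 266 and 200.3 CPM postnatally and 78.5 and 132 CPM at 3m, did not overlap between the ages (-1.08 ± 0.32, adjusted p = 0.113) and was called lower without the 11 cells. Among 13 genes of secreted signals 6 were tested, with 1 called higher and 2 lower, against 2.18% and 2.22% of all genes. Beside Nodal, which was higher, Mdk, the growth factor midkine, was at 250.1 and 189 CPM and then at 63.6 and 32.9 CPM, a fall of 2.06 on the log2 scale, and Angptl4, an inhibitor of lipoprotein lipase, fell by 4.25. Ptn, pleiotrophin, which is related to midkine, was at 6839 and 6067 CPM and then at 8046 and 9998 CPM and was not called (0.55 ± 0.17).

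Genes of antigen presentation, imprinted growth and translation held calls in 1 direction each, beside 2.18% of all genes called higher and 2.22% lower. Of 9 genes of MHC class I and interferon response 7 were tested and 2 were called higher, H2-K1 (16.0 and 6.53 CPM, then 112 and 127 CPM, a rise of 3.64 ± 0.48) and H2-D1 (rise of 2.20 ± 0.34). B2m, their shared light chain, was at 0.46 ± 0.24. Of 10 imprinted growth genes 6 were tested and Meg3, a non-coding RNA, was called lower, from 734 and 993 CPM to 93.5 and 75.2 CPM. It fell by 3.28 on the log2 scale. Igf2 was at 101 and 65.3 CPM and then at 22.4 and 23.5 CPM (-1.71 ± 0.44, adjusted p = 0.0784). Of 77 ribosomal protein genes tested 19 were called lower and 0 higher, with a median of -0.92, and 7 of 77 were called lower without the 11 cells, where 4.98% of all genes were. The summed level of the 79 ribosomal protein genes was 121972 and 111086 CPM in the postnatal mural sums and 57644 and 60484 CPM at 3m, and it differed in the same way in all other cells (112858 and 141193 CPM, then 52661 and 47084 CPM). Immediate early genes, which dissociation can induce, gave 0 calls by edgeR among 10 tested (median 0.61, 2 at an unadjusted p under 0.05) and 1, Atf3, by DESeq2. Their summed level was 2347 and 2635 CPM postnatally and 1140 and 4886 CPM at 3m, so the 3m libraries lay on either side of the postnatal ones. The direction rested on single 3m libraries: without 3m replicate 1 the median was 1.65 with 5 of 12 called higher, and without 3m replicate 2 it was -1.12 with 1 of 11 called lower. With the cells that had both Acta2 and Tagln left out 5 of 9 were called lower, against 138 of all 4223 genes of that fit.

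Mural and endothelial cells of the same libraries were compared by the difference of their age changes. Endothelial cells had at least 3 of the 4 endothelial genes and at most 2 of the 7 mural genes, and numbered 8 and 5 in the postnatal libraries and 23 and 21 at 3m. Their median UMI counts were 29519 and 1647 in the postnatal libraries and 6348 and 5481 at 3m. The endothelial sums held 264875 and 78692 UMIs postnatally and 173882 and 154958 UMIs at 3m. Most UMIs of the postnatal replicate 2 sum therefore came from the deepest of its 5 cells. Of 5029 genes tested with edgeR, 109 (2.17%) had a different age change, 65 with a higher and 44 with a lower value in mural cells, and without a scaling factor 59 and 78. Bgn, the proteoglycan biglycan, was at 915 and 710 CPM postnatally and 363 and 446 CPM at 3m in mural cells, and at 389 and 178 CPM and then 0 and 6.45 CPM in endothelial cells, a difference of 5.54 ± 0.81 (adjusted p = 0.00129). Ptn moved the other way, with endothelial sums at 49.1 and 38.1 CPM postnatally and 2519 and 2233 CPM at 3m, a difference of -4.99 ± 0.36. The endothelial sums of the Notch target Nrarp were at 177 and 140 CPM and then at 5.75 and 6.45 CPM, and those of Hes1 at 759 and 1601 CPM and then at 345 and 303 CPM. The differences were 5.02 ± 0.77 and 2.74 ± 0.51. Ifitm3, an antiviral membrane protein, was at 306 and 165 CPM and then at 1662 and 1917 CPM in endothelial sums and gave -2.84 ± 0.36. No mural change of Ptn, Nrarp, Hes1 or Ifitm3 was called on its own. Nodal had no UMI in the endothelial sums of either age and gave an adjusted p of 1 in this fit, so its mural rise is not shown to differ from endothelial cells.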

How the data were processed

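The authors deposited 1 table of UMI counts, 31053 genes by 4245 barcodes, with the runs of a library merged and no normalisation applied, and 0 of its columns were left unused. The submitters' processing notes name Cell Ranger, mm10 and Seurat 3.1.1, and the role of Seurat in making this table is not given in the sources used here.

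Cells with more than 500 genes and under 10% mitochondrial UMIs were kept, the member with fewer UMIs of a barcode shared by postnatal replicate 2 and 3m replicate 2 was dropped, and mural cells were taken by the marker rule. No clustering or doublet caller was used. The members, the gene lists and most tests were chosen with earlier results of these data known. Counts were summed per library over mural cells and tested in edgeR 4.0.16 by quasi-likelihood (glmQLFit and glmQLFTest, TMM factors, filterByExpr, Benjamini-Hochberg adjustment over all genes tested) in R 4.3.3, and log2 fold changes are 3m over postnatal with the SE of the fit. The difference of age changes was the interaction of cell class and age with the library as a term. Genes of the rule stayed in the fit but are described without a test and were not counted in the lists. Shares and medians were compared by an exact two-sided permutation test over libraries. DESeq2 1.42.0 was an alternative. The fits were also run on counts simulated with the gene proportions, library sizes and dispersion of the real sums, with results not given here.

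CPM values divide a summed count by the UMIs of that sum, so precision is set by the UMIs summed (187896 to 459219). A gene with 0 UMIs in a group was set to 3 counts over that group, 4.64 CPM postnatally and 6.25 CPM at 3m, to give a bound. Named genes were the 12 largest rises and 12 largest falls among called genes with a mean of at least 50 CPM in the higher group, no overlap of the groups, and mural CPM at or above that of all other cells in both libraries of that group. For the other comparisons they were the 5 highest and 5 lowest differences between mural and endothelial cells, the 20 highest ratios to other cells and the 10 genes at each end between Acta2/Tagln-high and low cells. Members of the gene lists are named besides. Gene positions are those of a GRCm38 annotation matched by symbol. Replicates of a group were not copies, since their mural counts differed by a chi-square per degree of freedom of 3.72 postnatally and 4.43 at 3m, above sampling noise. Some genes that met these rules or belong to the lists are not reported here, though the counts include them.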

Additional observations from a re-analysis of the deposited data

Results flagged for a closer look

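Age changes that differed between mural and endothelial cells of the same libraries stood out by the test of the difference itself. The values are the mural minus the endothelial log2 change in the edgeR fit, with the p adjusted over all genes tested in parentheses. The endothelial sums rest on 8 and 5 postnatal cells, and where there were 5 most UMIs came from the deepest of them. Genes at 0 in a whole group have a difference that depends on the prior count and is no bound. Itih5, which encodes a heavy chain that binds hyaluronan, was at 862 and 300.5 CPM and then at 314 and 705 CPM in mural cells, and at 0 and 12.7 CPM and then at 1018 and 768 CPM in endothelial cells, a difference of -8.32 (adjusted p = 0.000175). Oasl2, an interferon-induced gene, differed by -7.93 (adjusted p = 0.0107), Wnt5a, a Wnt ligand, by -7.83 (0.043), Plscr1, a phospholipid scramblase, by -7.74 (0.0323), and Vcam1, an adhesion molecule of activated endothelium, by -7.57 (0.0284), where 3m replicate 1 held 466 and 3m replicate 2 held 32.3 CPM of Vcam1 in endothelial cells.

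On the other side, Apln, the ligand of the apelin receptor and a marker of endothelial tip cells, was at 729 and 902 CPM in the postnatal endothelial sums and had 0 UMIs at 3m, with 0 to 7.48 CPM in mural sums, a difference of 13.91 (adjusted p = 0.0106). Chst1, a sulfotransferase gene, differed by 11.90 (adjusted p = 0.0107), Cd82, a tetraspanin gene, by 10.21 (0.0107) and Trp53i11 by 9.41 (0.00645), each from levels at 0 UMIs in the endothelial sums at 3m. Sncg differed by 9.67 (adjusted p = 0.0323), with 131 and 291 CPM in 3m mural sums and 5.75 and 12.9 CPM in 3m endothelial sums. Without the 11 cells led by markers of other types Chst1 had an adjusted p of 1, Wnt5a and Vcam1 no longer passed the filter on low counts, and the other 7 were called.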

How the results depend on the processing

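Against 200 calls between the ages, the count was 852 with every gene of at least 1 UMI tested, 1153 with at least 3 of the 7 mural genes, 56 with no endothelial gene detected and 78 with cells that held any UMI of the chosen oligodendrocyte genes left out. Leaving out each library gave 1 to 471 calls, the 1 without postnatal replicate 2. DESeq2 called 173 genes, 134 of them shared. Added after seeing the data, the count was 434 without the 11 cells led by markers of other types (678 and 376 with postnatal replicates 1 and 2 left out besides, 435 and 374 with 3m replicates 1 and 2), 448 with those at 20% of the mural markers left out too, and 452 in low cells alone. The library number of the labels as a replicate block gave 0 calls by edgeR, with 909 genes at an unadjusted p under 0.05. The deviations of same-numbered libraries had a correlation of -0.303. No label says that a number marks a batch. The libraries numbered 1 had 4 runs each, those numbered 2 had 2 runs each, and the latter shared 95 barcodes. The crossed pairing, for which that correlation has the opposite sign by construction, gave 473 calls. Both counts come from the same deviations, and a batch was not tested. For the difference from endothelial cells, against 109 calls, the replicate block gave 42, leaving out each library 86 to 190, and leaving out the 11 cells 218.

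The 24 named genes over 28 alternatives gave 580 values, and 92 could not be had because the gene was not tested. Direction and call were kept in 502, direction only in 78, and 0 reversed. All 24 lost the call under the replicate block, as did all 18 tested without postnatal replicate 2. The mural share reversed with at least 3 markers, at -2.15 points, and otherwise lay between 0.824 and 2.16 points without single libraries. The high share reversed to 0.349 points after thinning to 2000 UMIs and to 3.35 points with at least 3 markers, and lay between -12.1 and 9.52 points without single libraries (0.300 without 3m replicate 1). The median depth of mural cells kept its direction in each alternative run. The causes were not tested. Depth limits the 3m sums of low genes, where the floor of 3 counts is 6.25 CPM.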

Other observations

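The 92 cells with at least 4 mural and more than 2 endothelial genes were 23 and 20 in the postnatal libraries and 29 and 20 at 3m, with a median of 17195.5 UMIs per cell against 4294.5 in the 166 mural cells, and a median of 219.5 UMIs of the 7 mural genes against 163. They carried both marker sets in 1 barcode. In the comparisons they were counted among all other filtered cells, and they entered neither the mural nor the endothelial sums.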
